A study of Mus musculus with 12 samples.

Results

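Infiltrating monocytes and the macrophages that arise from them are described here through 10 genes, *Ly6c2*, *Plac8*, *Lyz2*, *Chil3*, *Arg1*, *Ms4a4c*, *Adgre1*, *Adgre5*, *Ms4a6c* and *Fn1*. They were chosen by symbol, with earlier results of these data known, from the 49315 genes of a bulk RNA-sequencing table of mouse brains at 14 d post-stroke. Each symbol matched 1 Ensembl identifier, and all 10 genes were among the 20290 genes with enough reads to be tested. In the brains of mice that carried *Tet2*-KO bone marrow (BM) cells, the mean level of every one of the 10 genes was lower than in mice that carried WT BM cells, by 1.49-fold for *Adgre5* to 3.62-fold for *Ly6c2*. No gene of the 10 passed an adjusted p of 0.05 with edgeR over all 12 mice, and the spread within the *Tet2*-KO group was wide, where replicate 5 lay within the range of the WT mice for all 10 genes.

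The study asked how clonal hematopoiesis driven by loss of *Tet2*, a DNA demethylating enzyme whose mutation lets blood stem cell clones expand, affects the brain after stroke. Male CD45.1 Pep Boy mice aged 8 to 12 weeks were irradiated with the head shielded and received mixed marrow, of which 10% came from CD45.2 donors that were either *Tet2*-/- (the *Tet2*-KO group, n = 6) or *Tet2*+/+ (the WT group, n = 6), and 90% from CD45.1 *Tet2*+/+ donors in both groups. Recipients and donors were on the C57Bl6 background, and the *Tet2* allele was a deletion in the whole donor animal, so that every blood lineage of the minority donor carried it while brain cells of the recipient did not. All 12 mice had a transient occlusion of the middle cerebral artery, with no sham-operated library among the 12. The treatment entry of the labels names control stem cells for the *Tet2*-KO mice too, whereas their titles and genotype entries give the knockout, and the latter set the groups. The tissue is labelled brain; the study calls it whole brain in its results and hemisphere elsewhere.

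As background, monocytes leave the marrow, circulate, and enter injured brain tissue through its vessels, where they mature into macrophages that clear debris beside the resident microglia. Classical monocytes carry much Ly6C antigen on the surface and lose it as they mature, while the macrophage antigen F4/80, the product of *Adgre1*, increases. Microglia also carry F4/80 and lysozyme, and neutrophils, fibroblasts and vessel cells use some of the same genes. In RNA from bulk tissue, fewer cells of a type and less RNA per cell cannot be told apart.

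Promoters are shown for *Ly6c2*, because its level differed most between the groups, for *Ly6c1*, its near copy on the same chromosome whose level did not follow it, and for *Plac8*. Each holds 250 bases before and 50 bases after a RefSeq start site on GRCm38.p6 (mm10), on the minus strand in all 3 cases. They lie at chr15:75111888-75112187, chr15:75048614-75048913 and chr5:100563047-100563346. Capitals mark matches to 4 motifs of myeloid or cytokine-responsive factors, searched on both strands: GAGGAAG for PU.1, TTGCNNAA for C/EBP, TTC and GAA with 4 bases of any kind between them for STAT6, and 2 copies of GAAA with 2 bases of any kind between them for the interferon-stimulated response element.
*Ly6c2*: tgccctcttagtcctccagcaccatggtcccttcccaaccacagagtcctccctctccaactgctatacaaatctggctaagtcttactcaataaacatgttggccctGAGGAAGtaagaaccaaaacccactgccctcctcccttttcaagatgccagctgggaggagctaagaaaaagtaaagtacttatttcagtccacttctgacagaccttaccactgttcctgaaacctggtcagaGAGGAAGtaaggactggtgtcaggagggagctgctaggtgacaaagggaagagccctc
*Ly6c1*: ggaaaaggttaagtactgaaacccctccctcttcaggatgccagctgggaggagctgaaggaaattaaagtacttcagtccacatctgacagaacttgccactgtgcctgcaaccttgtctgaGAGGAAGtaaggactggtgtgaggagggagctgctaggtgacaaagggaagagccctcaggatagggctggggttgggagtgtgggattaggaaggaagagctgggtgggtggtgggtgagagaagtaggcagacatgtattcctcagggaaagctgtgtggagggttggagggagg
*Plac8*: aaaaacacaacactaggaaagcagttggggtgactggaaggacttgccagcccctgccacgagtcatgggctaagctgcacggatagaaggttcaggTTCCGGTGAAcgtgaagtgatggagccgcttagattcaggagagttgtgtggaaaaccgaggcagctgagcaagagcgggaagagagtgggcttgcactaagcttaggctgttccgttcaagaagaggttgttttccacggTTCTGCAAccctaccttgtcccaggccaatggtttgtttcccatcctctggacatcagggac
The *Ly6c2* promoter held 2 PU.1 matches and that of *Ly6c1* held 1. A second RefSeq window of *Ly6c2* also held 2, and a second one of *Ly6c1* held none of the 4 motifs. The longest run of bases that both printed promoters share is 37 bases, and the second *Ly6c1* window shared at most 20 with either *Ly6c2* window. The *Plac8* promoter held 1 STAT6 match and, on the opposite strand, 1 C/EBP match. Among all 32851 mouse promoters of this length, 13.6% held the PU.1 letters, 10.8% those of C/EBP, 6.95% those of STAT6 and 3.44% those of the interferon element. RefSeq promoters were matched for 6 of the 10 genes, and the windows of *Lyz2*, *Chil3*, *Ms4a4c* and *Ms4a6c*, like a second window of *Plac8*, held none of the 4 motifs, which says only that these letters are not in these windows. *Arg1*, *Adgre1*, *Adgre5* and *Fn1* were not matched.

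Total counts per mouse ranged from 12000261 to 15340787 in the WT group and from 12625047 to 21049763 in the *Tet2*-KO group, with no difference between the groups past 0.05 (p = 0.0758, two-sided exact permutation test). Libraries of 1 group differed by more than sampling noise, and each was treated as its own mouse, as the study describes its libraries. *Tet2* itself lay between 126 and 147 CPM (counts scaled to the size of the library) in WT and between 117 and 137 CPM in *Tet2*-KO brains, which gives no check of the labels, since most of the RNA is from recipient cells. On the levels of the 10 genes themselves, 2 mice stood apart. *Tet2*-KO replicate 5 was at or above the lowest WT mouse for 10 of the 10 genes, whereas each of the other *Tet2*-KO mice was so for at most 1. WT replicate 2 was the highest of the 12 mice for 9 of the 10 genes. Both were kept in every value below unless stated. Levels are CPM on the scale of edgeR's TMM normalization, fold changes compare *Tet2*-KO with WT, and adjusted p-values are Benjamini-Hochberg values of edgeR's quasi-likelihood test over all 20290 genes.

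**Figure D1:**
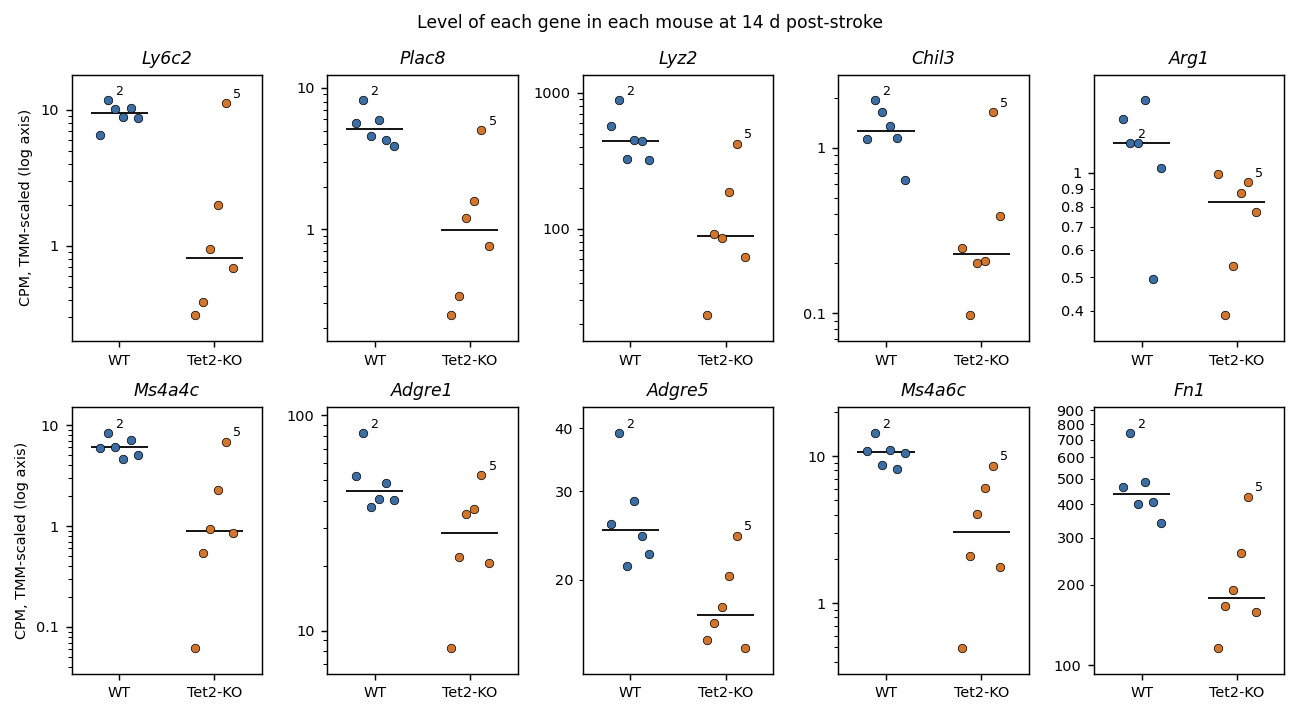
Level of each of the 10 genes in each mouse, in TMM-scaled CPM on a log axis, for 6 WT (blue) and 6 *Tet2*-KO (orange) mice, with lines at the group medians and the numbers marking WT replicate 2 and *Tet2*-KO replicate 5. *Tet2*-KO replicate 5 sits among the WT mice in every panel, at 11.1 CPM of *Ly6c2* against at most 2.01 CPM in the other *Tet2*-KO mice.

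The surface antigens of the list were described first. *Ly6c2* (chr15:75108158-75111970, minus strand, 4 exon blocks) encodes a form of the Ly6C antigen by which classical monocytes are sorted. It ranged from 6.47 to 11.7 CPM in WT mice (median 9.50) and from 0.310 to 11.1 CPM in *Tet2*-KO mice (median 0.817). Of the *Tet2*-KO mice, 5 were under the lowest WT mouse and replicate 5 was second only to WT replicate 2. The means were 9.34 ± 1.78 and 2.58 ± 4.24 CPM (SD, n = 6 each). The log2 fold change fitted by edgeR, which need not equal the ratio of the means, was -1.95 (SE 0.71, adjusted p = 0.155). Without replicate 5 the other *Tet2*-KO mice averaged 0.868 ± 0.684 CPM (SD, n = 5), 10.8-fold below the WT mean, with a fitted log2 fold change of -3.38 (SE 0.34, adjusted p = 0.000824).

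*Adgre1* (chr17:57358691-57483527, plus strand), which encodes the macrophage antigen F4/80, ranged from 37.6 to 82.6 CPM in WT mice (median 44.5) and from 8.30 to 52.5 CPM in *Tet2*-KO mice (median 28.3). Again 5 *Tet2*-KO mice lay under the WT range, but the nearest of them, at 36.7 CPM, was close to the lowest WT mouse. Its log2 fold change was -0.79 (SE 0.37, adjusted p = 0.234), and -1.04 (adjusted p = 0.0900) without replicate 5, so that *Adgre1* did not pass the threshold in either fit. *Adgre5* (chr8:83723251-83741326, minus strand) encodes CD97, an adhesion receptor of the same family found on many leukocytes. It ranged from 21.3 to 39.2 CPM in WT mice (median 25.1) and from 14.6 to 24.5 CPM in *Tet2*-KO mice (median 17.0). The fold change was the smallest of the 10 and the most precise, at -0.58 (SE 0.16, adjusted p = 0.118), and -0.68 (adjusted p = 0.0183) without replicate 5. Its exons share 926 bases with genes that overlap it, mainly *Ddx39* on the opposite strand, and the strand setting of the counting was not given, so some of its reads may belong to *Ddx39*.

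The remaining surface proteins belong to the MS4A family of proteins that span the membrane, whose genes lie side by side on chromosome 19. *Ms4a4c* (chr19:11404770-11427246, plus strand) ranged from 4.602 to 8.32 CPM in WT mice (median 6.02) and from 0.0620 to 6.83 CPM in *Tet2*-KO mice (median 0.894). *Tet2*-KO replicate 1 had a single read of it, against at least 64 reads in each WT mouse. The log2 fold change was -1.77 (SE 0.62, adjusted p = 0.146), and -2.69 (adjusted p = 0.00722) without replicate 5. *Ms4a6c* (chr19:11469366-11482192, plus strand) ranged from 8.16 to 14.3 CPM in WT mice (median 10.7) and from 0.496 to 8.63 CPM in *Tet2*-KO mice (median 3.06). All *Tet2*-KO mice but replicate 5 were under the WT range for both genes. The log2 fold change of *Ms4a6c* was -1.48 (SE 0.46, adjusted p = 0.128), and -1.84 (adjusted p = 0.0242) without replicate 5. Its exons share 1088 bases with *BE692007* on the opposite strand, with the same limit as for *Adgre5*.

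The secreted proteins covered the widest span of levels. *Lyz2* (chr10:117277331-117282321, minus strand), the lysozyme of myeloid cells, ranged from 320.9 to 877 CPM in WT mice (median 444.5) and from 23.3 to 423 CPM in *Tet2*-KO mice (median 88.9). The next *Tet2*-KO mouse after replicate 5 was at 186 CPM, below the lowest WT mouse. The means were 496 ± 207 and 145 ± 146 CPM (SD, n = 6 each), with a log2 fold change of -1.78 (SE 0.61, adjusted p = 0.146), and without replicate 5 the fold change was -2.46 (adjusted p = 0.0196). *Fn1* (chr1:71585520-71653200, minus strand, 45 exon blocks), which encodes fibronectin, a matrix protein made by wound macrophages, fibroblasts and vessel cells, ranged from 341 to 740 CPM in WT mice (median 437.5) and from 116 to 428 CPM in *Tet2*-KO mice (median 179). Its log2 fold change was -1.10 (SE 0.31, adjusted p = 0.123), and -1.40 (adjusted p = 0.0130) without replicate 5. *Chil3* (chr3:106147554-106167564, minus strand) encodes Ym1, a chitinase-like protein that monocytes, neutrophils and alternatively activated macrophages secrete. It had only 8 to 27 reads per WT mouse and 2 to 21 per *Tet2*-KO mouse, so its values carry a wide counting error. It ranged from 0.635 to 1.94 CPM in WT mice (median 1.26) and from 0.0972 to 1.65 CPM in *Tet2*-KO mice (median 0.227). With 5 of 6 *Tet2*-KO mice at or under 0.385 CPM and all WT mice at or above 0.635 CPM, its log2 fold change was -1.65 (SE 0.51), and -2.57 (adjusted p = 0.00256) without replicate 5.

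The last genes act inside the cell. *Plac8* (chr5:100553725-100572245, minus strand), a small cysteine-rich protein abundant in classical monocytes and granulocytes, ranged from 3.89 to 8.18 CPM in WT mice (median 5.12) and from 0.248 to 5.02 CPM in *Tet2*-KO mice (median 0.990). Its log2 fold change was -1.91 (SE 0.54, adjusted p = 0.123), and -2.70 (adjusted p = 0.00308) without replicate 5. *Arg1* (chr10:24915221-24927484, minus strand), the arginase of alternatively activated macrophages, was the exception among the 10. It had 6 to 25 reads per WT mouse and 8 to 17 per *Tet2*-KO mouse, or 0.495 to 1.62 CPM (median 1.22) and 0.389 to 0.991 CPM (median 0.822). The groups overlapped, and only 1 *Tet2*-KO mouse was under the lowest WT value, the 0.495 CPM of WT replicate 5. Replicate 5 of the *Tet2*-KO group, at 0.941 CPM, was not the highest of its group for this gene. The fold change of *Arg1* was nearly the same with and without that mouse, at -0.67 (SE 0.28) and -0.74 (SE 0.30).

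**Figure D2:**
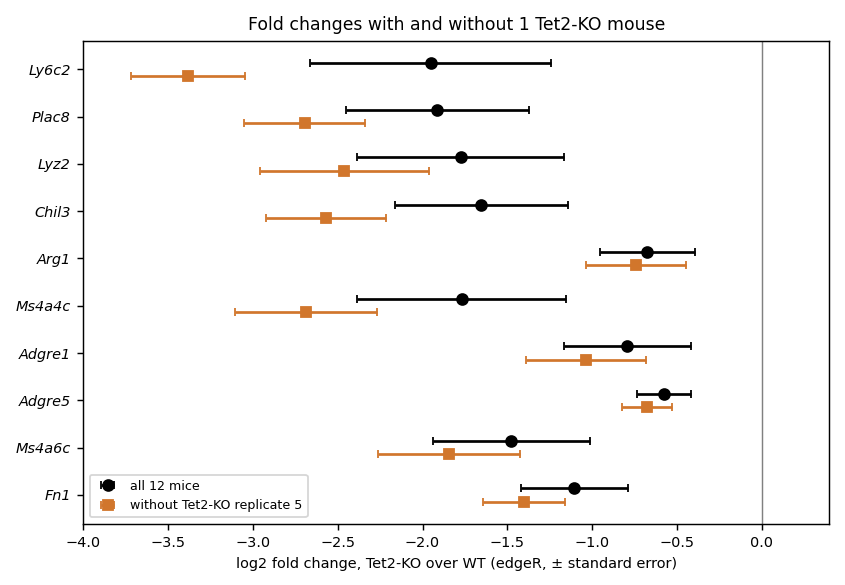
Log2 fold change of each gene, *Tet2*-KO over WT, from edgeR, with bars of 1 standard error, over all 12 mice (black circles) and without *Tet2*-KO replicate 5 (orange squares). All 20 values are below 0, and the shift between the fits is largest for *Ly6c2*, from -1.95 to -3.38, and small for *Arg1*, from -0.67 to -0.74.

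Counted together, 10 of the 10 genes had a fold change below 0, against 47.7% of all genes tested, and 9 of 10 were lower at an unadjusted p below 0.05, against 12.2% of all genes. *Adgre1* was the exception, with an unadjusted p of 0.0589. The median log2 fold change of the 10 genes was -1.57, beside 0.01 over all genes tested. No gene of the 10 passed the adjusted threshold with edgeR, where 0.0246% of all genes were lower and past it, and their adjusted p-values lay between 0.118 and 0.234. The DESeq2 Wald test put 2 of them past it, *Adgre5* and *Fn1*, against 3.32% of all genes lower and past it, and gave no p-value for *Ly6c2*. With limma voom and quality weights 8 of 10 passed, against 7.01% of all genes, and with edgeR without *Tet2*-KO replicate 5 the same 8 passed, against 7.30% of all genes. These 8 were all but *Arg1* and *Adgre1*. Without WT replicate 2, the mouse with the highest levels, the log2 fold changes lay between -1.88 for *Ly6c2* and -0.44 for *Adgre5*, all below 0 and none past the adjusted threshold with edgeR (adjusted p from 0.217 to 0.470). *Tet2*-KO replicate 5 was singled out by its levels of these same 10 genes, so the fits without it describe the other mice and are no independent support. No gene of the 10 had every *Tet2*-KO mouse under the WT range, as 0.641% of all genes did. For 9 of the 10 genes 5 *Tet2*-KO mice were under it, a count chosen after the values were seen, and 5.64% of all genes tested had at least as many. By the exact permutation test of each gene on log2(CPM + 0.1), unadjusted p ranged from 0.00433 for *Ms4a6c* to 0.0325 for *Adgre1* in 9 genes and was 0.0844 for *Arg1* (two-sided, smallest possible p 0.00216). The share of all genes at such p-values by this test was not computed.

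For unequal change, 6 ratios of gene pairs within a library were tested, each as the log2 ratio of CPM + 0.1. The added 0.1 weighs on genes of few reads, so that the ratios of *Arg1* to *Chil3* and of *Ms4a4c* to *Ms4a6c* were nearer 0 with 0.5 in its place, at 0.62 and -0.29. The log2 ratio of *Lyz2* to *Adgre1* was between 2.99 and 3.45 in WT mice and between 1.31 and 3.01 in *Tet2*-KO mice, and in 5 of 6 *Tet2*-KO mice it was under the WT range. The mean difference was -1.30, so that the *Lyz2* level was lower by more than the *Adgre1* level (exact two-sided permutation test, p = 0.00433, 0.0195 after adjustment over the 6 ratios). The ratio of *Ly6c2* to *Ly6c1* differed by -3.09 (exact permutation p = 0.00649, adjusted 0.0195), again with 5 of 6 *Tet2*-KO mice under the WT range. *Ly6c1*, which vessel endothelium of the brain expresses, was at 27.3 ± 4.36 CPM in WT and 31.5 ± 5.80 CPM in *Tet2*-KO mice (SD, n = 6 each), a log2 fold change of 0.21 (adjusted p = 0.342). Of all 50-base stretches of *Ly6c2* exons 14.4% also occur in another gene, mainly *Ly6c1*, but only 1.42% of the 150-base stretches do, and only uniquely mapped reads were counted.

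The other ratios did not pass 0.05 after adjustment. The *Arg1* to *Chil3* ratio was higher in *Tet2*-KO mice by 1.12, with 5 of 6 over the WT range and replicate 5 within the WT range at -0.75 (exact permutation p = 0.0368, adjusted 0.0736). The *Ms4a4c* to *Ms4a6c* ratio differed by -0.63 (exact permutation p = 0.0671, adjusted 0.0910) and that of *Adgre5* to *Adgre1* by 0.38 (exact permutation p = 0.264). For *Fn1* to *Col1a1*, the collagen gene of fibroblasts, the difference was 0.41 (exact permutation p = 0.0758, adjusted 0.0910), with both genes lower in *Tet2*-KO brains.

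**Figure D3:**
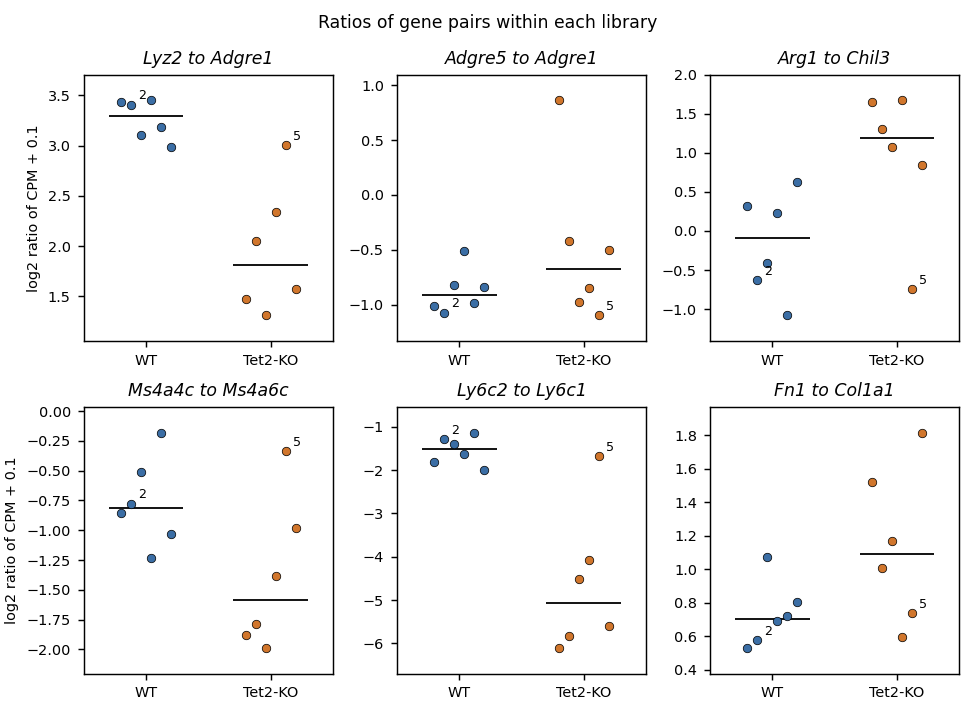
Log2 ratio of the 2 genes named above each panel, from CPM + 0.1 in each library, for 6 WT (blue) and 6 *Tet2*-KO (orange) mice, with lines at the medians and numbers marking WT replicate 2 and *Tet2*-KO replicate 5. The *Ly6c2* to *Ly6c1* ratio of 5 *Tet2*-KO mice lies below every WT mouse, while that of replicate 5, at -1.68, lies among them.

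Levels of different genes were compared per kilobase of exon. In WT mice the order ran from *Lyz2* at 377 ± 158 CPM per kb (SD, n = 6) through *Fn1* at 40.6 ± 11.99, *Adgre1* at 15.5 ± 5.17 and *Adgre5* at 7.18 ± 1.73 CPM per kb, and each of the first 3 did not overlap the next in range. *Ms4a6c* at 5.16 ± 1.06 CPM per kb overlapped *Adgre5* in range, although *Adgre5* was the higher in 6 of 6 WT mice. *Ms4a4c* at 3.54 ± 0.780, *Ly6c2* at 3.41 ± 0.650 and *Plac8* at 3.41 ± 0.983 CPM per kb did not differ beyond their spread. *Chil3* at 0.803 ± 0.277 and *Arg1* at 0.525 ± 0.174 CPM per kb were lowest and overlapped. In *Tet2*-KO mice *Lyz2*, at 110 ± 111 CPM per kb, and *Fn1*, at 18.9 ± 9.65 CPM per kb, still led, all neighbours in the order overlapped, and *Arg1*, at 0.337 ± 0.107 CPM per kb, was above *Chil3* in 5 of 6 mice. The relative spread was wider in *Tet2*-KO than in WT mice for 8 of the 10 genes, with a coefficient of variation of 164% against 19.1% for *Ly6c2*, while *Arg1* (31.9% against 33.1%) and *Adgre5* (20.6% against 24.1%) varied about as much in both groups. Part of this spread rested on *Tet2*-KO replicate 5. Without it the coefficient of variation in *Tet2*-KO mice was 78.8% for *Ly6c2* and, for *Fn1*, 30.3% against 29.6% in WT mice. The relative spread was still wider in *Tet2*-KO mice for 9 of the 10 genes without that mouse, at 75.5% against 20.5% for *Ms4a6c*. The difference was slight for *Fn1* and for *Arg1* (34.6% against 33.1%). Counting error adds more to the relative spread where reads are few, as for *Chil3* in *Tet2*-KO mice. The share of all genes tested with a wider spread in *Tet2*-KO mice was not computed, so these counts stand as a description.

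The genes were also compared from mouse to mouse. Across the 12 mice, the 45 pairs of the 10 genes had Pearson correlations of log2 CPM with a median of 0.896 (0.266 to 0.982), and after the group means were taken off the median was 0.788 (-0.0586 to 0.959). The median was 0.885 within the *Tet2*-KO mice and 0.558 within the WT mice, where *Ly6c2* with *Ms4a6c* reached only 0.0938. These are descriptions over libraries that share group and depth. The 36 pairs without *Arg1* all reached at least 0.685, and *Lyz2* with *Fn1* gave the highest value. The gene most alike each of the 10, among 19093 other genes with a mean of at least 1 CPM, was *Slfn4* for *Ly6c2* (r = 0.983), *Slfn1* for *Plac8* (r = 0.994), *Csf2rb* for *Lyz2* (r = 0.994), *Alpl* for *Chil3* (r = 0.953) and *Ifi206* for *Ms4a4c* (r = 0.989). It was *Fyb* for *Adgre1* (r = 0.987), *Ostf1* for *Adgre5* (r = 0.981), *Msr1* for *Ms4a6c* (r = 0.990), *Ltbp2* for *Fn1* (r = 0.993) and, with the lowest likeness, *Nmur2* for *Arg1* (r = 0.880).

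Other genes of the same cells were read from lists. Among all genes tested, 12.2% were lower at an unadjusted p below 0.05, the share to set beside the counts of lower genes here and below. Of the classical monocyte list, 11 of 14 genes were tested, all 11 had a fold change below 0, 10 at an unadjusted p below 0.05 and none past the adjusted threshold, with a median of -1.01. *Clec4e*, a lectin receptor for damaged cells, was at 3.43 ± 1.42 CPM in WT and 0.506 ± 0.659 CPM in *Tet2*-KO mice (SD, n = 6 each, log2 fold change -2.87, adjusted p = 0.110). The nonclassical list had 3 of 5 tested genes lower at an unadjusted p below 0.05 and a median of -1.23, with *Spn*, the sialophorin CD43, at -1.48 and *Itgal*, an integrin chain, at -1.23. In the pan-macrophage list 7 of 10 genes were so and the median was -0.87, with *Tyrobp*, a signalling adaptor, at -0.86 and *Cd68*, a lysosomal protein, at -0.99. Homeostatic microglia genes had 1 of 9 lower at an unadjusted p below 0.05, near the share over all genes, and a median of -0.17, with *Olfml3* at -0.65. Border-associated macrophage genes had 4 of 7 and a median of -0.81, with *Folr2*, a folate receptor, at -1.36 and *Mrc1*, the mannose receptor, at -0.95. Of these 7 genes, 2 had a fold change above 0, neither at an unadjusted p below 0.05. No gene of these lists passed the adjusted threshold with edgeR on all 12 mice. DESeq2 put 9 classical monocyte, 1 nonclassical, 0 pan-macrophage, 0 microglia and 1 border-associated macrophage genes past it, limma voom 10, 3, 7, 1 and 4, and edgeR without *Tet2*-KO replicate 5 10, 3, 3, 0 and 4, all of them lower. The shares of all genes lower and past it in these 3 fits were 3.32%, 7.01% and 7.30%.

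Families and partners of the 10 genes split. All 6 tested relatives in the MS4A family were lower at an unadjusted p below 0.05 (median -1.41), among them *Ms4a4d* at -1.40 and *Ms4a6d* at -1.42. Of 8 Ly6 family genes 5 were tested, and these were mixed. At an unadjusted p below 0.05, 3 of the 5 fell, among them *Ly6i* at -1.20 and *Ly6e* at -0.58, and 1 rose. Among all genes tested, 10.8% were higher at that level, the share to set beside the counts of higher genes here and below. The Ly6 median was -0.32 over the 5 genes and, with no filter on low counts, -0.88 over all 8. No other chitinase-like or lysozyme gene of 3 tested was below an unadjusted p of 0.05, with *Chil1* at -0.71 and *Chil5* at 0.13. Of 11 genes of type 2 activation, the state that *Arg1* and *Chil3* mark, 6 were tested. Of these 6, 5 were lower at an unadjusted p below 0.05 (median -0.996). With no filter on low counts the median over all 11 was -0.76. *Il4ra*, the interleukin-4 receptor chain, was at -1.18 and *Tgm2*, a transglutaminase, at -1.04. In arginine metabolism, which *Arg1* serves, 4 of 8 were lower at an unadjusted p below 0.05 (median -0.16). In the same list 1 of 8 was higher, near the share over all genes. The arginine transporter *Slc7a2* was at -0.51 (adjusted p = 0.135) and *Nos2*, the inducible nitric oxide synthase that competes for arginine, at -0.68 (adjusted p = 0.153). Of the receptors and partners of fibronectin, 7 of 12 were lower at an unadjusted p below 0.05 (median -0.34), with the integrin chain *Itga4* at -0.53 and *Tgm2* as above, and 5 passed the adjusted threshold with DESeq2 and 6 with limma voom. With edgeR on all mice no gene of these families passed it, whereas all 6 of the MS4A relatives did with limma voom and 1 with DESeq2.

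**Figure D4:**
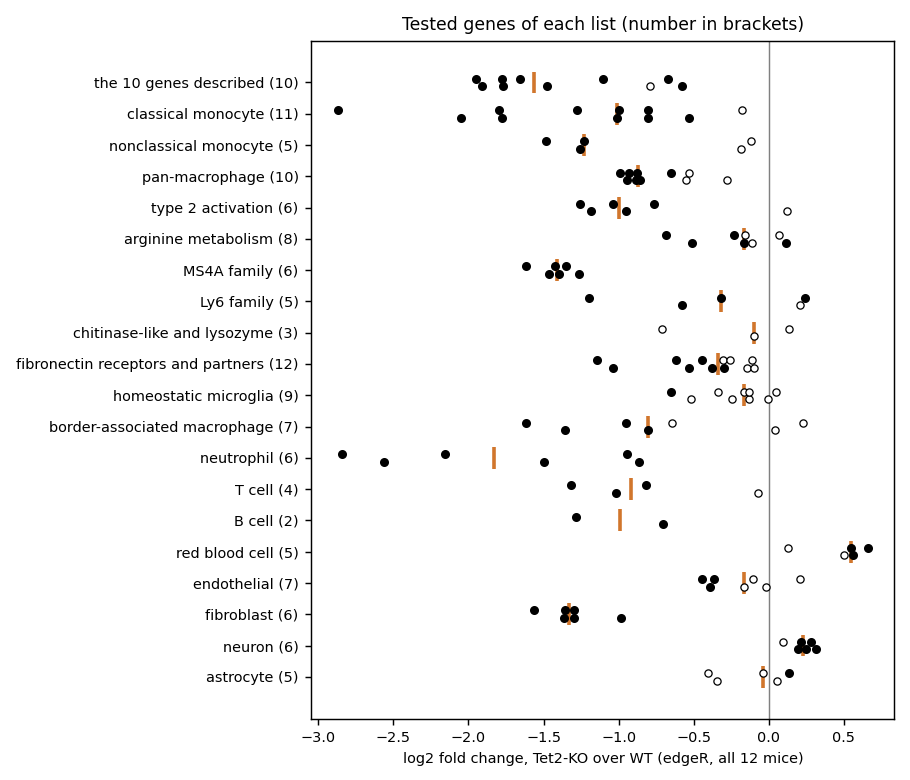
Log2 fold change of each tested gene, *Tet2*-KO over WT, from edgeR over all 12 mice, by list, with filled points at an unadjusted p below 0.05, open points above it, and orange bars at the list medians. The median was -1.57 for the 10 genes described, -0.17 for homeostatic microglia and 0.23 for neurons.

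Markers of other cell types moved with the 10 genes. For neutrophils, which share *Plac8*, *Lyz2* and *Chil3* with monocytes, 6 of 13 markers were tested and all 6 were lower at an unadjusted p below 0.05 (median -1.83). With no filter on low counts the median over all 13 was -0.94. *S100a9* and *S100a8*, the calprotectin subunits that monocytes also make, fell past the adjusted threshold, by 2.84 and 2.16 on the log2 scale (adjusted p = 0.0364 for each). The summed level of the neutrophil list was 75.6 to 167 CPM in WT and 25.3 to 84.7 CPM in *Tet2*-KO mice. Most of that sum was *Csf3r*, with means of 83.1 CPM in WT and 45.7 CPM in *Tet2*-KO mice, against mean sums of 101 and 52.3 CPM. The sum thus says little about the other markers. *Ly6g*, *Mpo*, *Elane*, *Camp*, *Ngp*, *Retnlg* and *Ltf*, which define neutrophils and their precursors, had too few reads to be tested, though none was at 0 in all mice. All 6 fibroblast genes were lower at an unadjusted p below 0.05 (median -1.33), with *Dcn* at -1.30 and *Col1a1* at -1.36, and a summed level of 505 to 1200 CPM in WT and 91.4 to 661 CPM in *Tet2*-KO mice. Of T cell genes 3 of 4 tested were so (median -0.92, summed level 9.10 to 13.5 and 3.90 to 10.2 CPM), with *Lck* at -0.82 and *Cd3e* at -1.32, and of B cell genes 2 of 2 (median -0.99, summed level 5.03 to 11.8 and 2.62 to 5.57 CPM), *Cd79b* at -1.28 and *Pax5* at -0.70. Endothelial genes had 3 of 7 lower at an unadjusted p below 0.05 (median -0.16, summed level 238 to 282 and 207 to 256 CPM), with *Cldn5* at -0.45 and *Kdr* at -0.39.

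In the other direction, 3 of 5 red blood cell genes were higher at an unadjusted p below 0.05, as 10.8% of all genes tested were (median 0.55, summed level 21.2 to 31.5 CPM in WT and 27.4 to 41.2 CPM in *Tet2*-KO mice), with *Hbb-bs* at 0.54 and *Hba-a2* at 0.56, hemoglobin genes whose copies are nearly identical. So were 5 of 6 neuron genes (median 0.23, summed level 3180 to 4440 and 4080 to 5350 CPM), with *Rbfox3* at 0.31 and *Tubb3* at 0.19, and 1 of 5 astrocyte genes, *Slc1a2* at 0.13 with *Aqp4* at -0.40 (median -0.04, summed level 5650 to 6630 and 5500 to 6810 CPM). *Tet2*-KO replicate 5 was within the WT range for the summed level of the neutrophil, fibroblast, T cell, B cell, red blood cell and neuron lists too. So was replicate 4 for the neutrophil, B cell, red blood cell and neuron lists, and replicate 6 for red blood cells. The part of these cell types in the levels of the 10 genes was not tested.

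**Figure D5:**
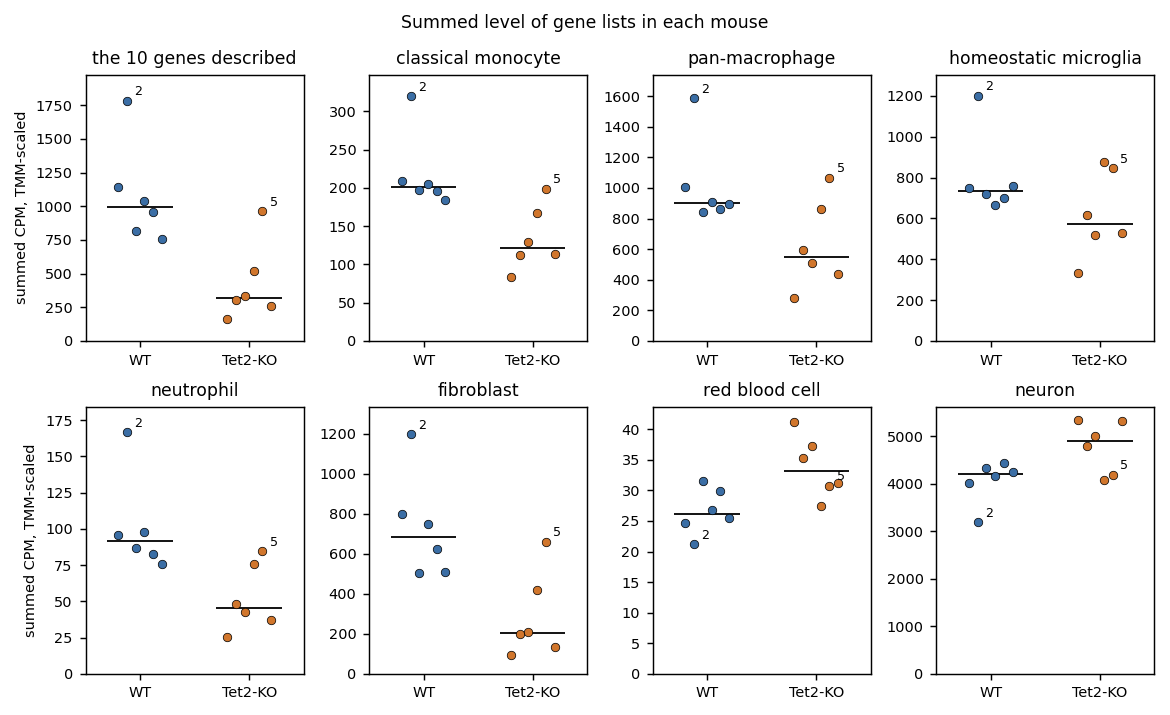
Summed level of 8 gene lists in each mouse, in TMM-scaled CPM on axes from 0, for 6 WT (blue) and 6 *Tet2*-KO (orange) mice, with lines at the medians and numbers marking WT replicate 2 and *Tet2*-KO replicate 5. The 10 genes summed to between 754 and 1780 CPM in WT mice and to between 165 and 962 CPM in *Tet2*-KO mice, the latter at replicate 5. Most of that sum was *Lyz2* and *Fn1*, with means of 496 and 474 CPM in WT mice and 145 and 221 CPM in *Tet2*-KO mice.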

How the data were processed

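RNA from the brains of 12 mice was sequenced as paired reads of 150 bases after removal of ribosomal RNA. Per the submitters' notes and the study's methods, the authors used Trimmomatic 0.36, STAR 2.5.2b with mm10, and featureCounts of Subread 1.5.2 for unique reads in exons. The deposited values are raw counts per gene, with no normalization. The strand setting is not given in the sources used here. Genes were kept by filterByExpr, scaled by TMM and tested on all 12 mice with the robust quasi-likelihood F test of edgeR 4.0.16 (R 4.3.3, no covariate, threshold 0.05). Standard errors are the log2 fold change over the square root of F. Log2 CPM used a prior count of 2. Alternatives were the DESeq2 1.42.0 Wald test, limma 3.58.1 voom, other scaling and filters, a replicate block and each mouse left out. The tests were also run on simulated counts with the same spread between mice for every gene and no outlying mouse. These libraries differ in both, so that run cannot decide between the tests here. Symbols and merged exons came from GENCODE M21. From each list the text names the 2 genes with the smallest unadjusted p, besides the genes of the ratios and the most alike genes. Of the genes this rule picks, 2 are not reported here. The untested neutrophil markers and *Csf3r* were named after their values were seen. The 10 genes and the lists were chosen with earlier results of these data known.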

Additional observations from a re-analysis of the deposited data

Results flagged for a closer look

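By Dixon's criterion on CPM, 6 of the 20 groups of 6 mice (10 genes in 2 groups) held a mouse that stood apart. Normally distributed values meet it by chance in about 1 of 20 groups. CPM values need not have that shape, and on log2 CPM the gaps named below are smaller shares of the range. No excess over chance follows from the count. The groups are not independent, since the levels of the genes are correlated and the same 2 mice recur. *Tet2*-KO replicate 5 stood above its group for *Ly6c2* at 11.1 CPM (next 2.01), for *Plac8* at 5.02 CPM (next 1.59), for *Chil3* at 1.65 CPM (next 0.385) and for *Ms4a4c* at 6.83 CPM (next 2.26). WT replicate 2 stood above its group for *Adgre1* at 82.6 CPM (next 52.3) and for *Fn1* at 740 CPM (next 487).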

How the results depend on the processing

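All 10 genes stayed lower in *Tet2*-KO mice under every alternative in which they were tested. Past the adjusted threshold, edgeR on all mice had 5 genes, none of the 10. The number was 898 with DESeq2 (2 of the 10), 2013 with limma voom (8), 44 with no filter on low counts, 0 with at least 10 counts in every library (4241 at an unadjusted p below 0.05, 4 of the 10 in the fit) and 1554 (6) without both WT replicate 2 and *Tet2*-KO replicate 5, an alternative chosen after seeing the data, in which *Chil3* was filtered out. With each mouse left out in turn it ranged from 0 to 2257, and from 0 to 8 for the 10 genes, the upper values being those without *Tet2*-KO replicate 5. In 8 of the 12 fits it was 0, with 3629 to 5386 genes at an unadjusted p below 0.05. No pairing of the mice by replicate number was evident. Same-numbered mice had correlations of -0.17 to 0.23 of their deviations, and only number 6 matched best with itself. Such correlations cannot exclude a pairing. The fit with the replicate number as a block gave 0 genes (4329 at an unadjusted p below 0.05). The *Arg1* to *Chil3* difference was 0.62 with a pseudocount of 0.5 CPM (exact permutation p = 0.0584) and 0.94 to 1.47 with each mouse left out, past an unadjusted 0.05 only without WT replicate 1, 4 or 6 or *Tet2*-KO replicate 5. The *Ms4a4c* to *Ms4a6c* difference was -0.29 with a pseudocount of 0.5 CPM (exact permutation p = 0.26) and -0.84 to -0.51 with each mouse left out, past an unadjusted 0.05 only without *Tet2*-KO replicate 5, and that of *Fn1* to *Col1a1* 0.27 to 0.52, past it without WT replicate 3, *Tet2*-KO replicate 4 or *Tet2*-KO replicate 5. With at least 10 counts in every library the neutrophil median was -0.91 and the T cell median -0.45, over 2 genes each. The Ly6 family median was -0.06 over 4 genes with that filter and -0.88 over 8 genes with DESeq2. Without both WT replicate 2 and *Tet2*-KO replicate 5 it was -0.09 over 4 genes. The cause of these shifts was not tested. Depth limits *Chil3* and *Arg1*.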
